A study of Mus musculus with 4 samples.

Results

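The genes described here act on plasma lipoproteins at the liver: the assembly factor Mttp, the lipases Lipc, Lpl and Lipg, the lipase inhibitor Angptl4, the lipid-modifying proteins Lcat and Pltp, and the receptors Scarb1 and Lrp1. They were chosen by symbol, with earlier results of these data known, and all 9 had a row in the deposited table of 24138 genes. Their RNA was measured by bulk sequencing in liver from 4 mice, all male, of strain C57BL/6J and at an age of 18 weeks. Every animal had received the FAT-MASH diet, named for metabolic dysfunction-associated steatohepatitis (MASH), and resolvin D1 (RvD1), a lipid mediator made from docosahexaenoic acid. No liver without the diet or without RvD1 was analysed here, so the values give levels and their spread between animals, and an effect of either cannot be read from them. The livers are numbered 1 to 4 as in the labels.

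The liver exports triglyceride and cholesterol in very low density lipoprotein (VLDL), whose protein core, apolipoprotein B, is loaded with lipid as it enters the endoplasmic reticulum. In the circulation, lipases hydrolyse the carried lipid, and the remnants return to hepatocytes through receptors. High density lipoprotein (HDL) takes up cholesterol from tissues, is remodelled in plasma, and delivers cholesteryl ester to the liver.

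The values carry no named unit and were read as FPKM, that is fragment counts divided by transcript length and by library depth. On that reading, levels can be set beside each other between genes. The estimated depth was 18.8 to 20.1 M fragments (M, mega) per library. The estimate could only fall in a band around these values, because of the window it used, so the true depth was not established. Of 8 hepatocyte markers, 7 had a mean of at least 1 FPKM, and Alb was listed at 0 in all 4 livers, so an exact 0 in this table may be a failed estimate. Liver 2 stood apart in acute phase genes: all 8 genes of that list were highest there, and their summed level was 11511 FPKM against 3028 to 4212 FPKM in the other livers. For bulk tissue, a smaller number of cells of a type and less RNA per cell cannot be told apart.

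All 9 genes were expressed, here meaning a mean of at least 1 FPKM over the livers. Lcat was the most abundant, at 393 ± 64.5 FPKM (SD, n = 4), and Lipg the least, at 7.03 ± 0.790 FPKM (SD, n = 4). No gene had a highest liver 1.5 times the lowest or more (0 of 9), and 28.4% of the 10541 expressed genes in the table did. The median range was 1.26-fold over the 9 genes and 1.34-fold over all expressed genes. These comparisons were not matched for level, and 47.0% of expressed genes had a lower mean than Lipg. The range of single genes ran from 1.11-fold for Mttp to 1.48-fold for Lcat.

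**Figure D1:**
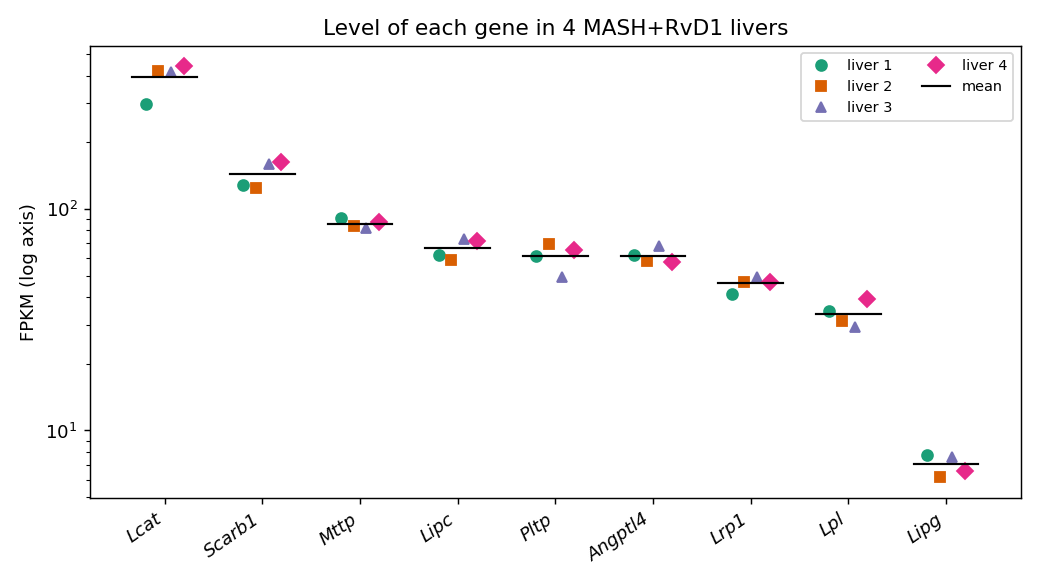
FPKM on a log axis for each gene, in the order of its mean. Symbols are single livers and black lines are means of 4 livers. Lcat lies at the top, with liver 1 (298 FPKM) below the other livers (414 to 439.8 FPKM), and Lipg lies below all other genes in every liver.

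Mttp encodes the large subunit of microsomal triglyceride transfer protein, which transfers lipid onto apolipoprotein B. Its row (XLOC_014141, minus strand, chromosome 3, 138089855 to 138143388) gave 91.2, 83.4, 82.1 and 86.9 FPKM in livers 1 to 4, with a mean of 85.9 ± 4.05 FPKM (SD, n = 4). The livers lay close together, and liver 1 was the highest. The SD of log2(FPKM + 1) was 0.07, and 6.93% of expressed genes had a lower one. Without liver 1 the SD was 0.042 and the 1.11-fold range became 1.06-fold. In GENCODE vM21, Mttp shares 132 of its 6206 exonic bases with Gm43691 on the opposite strand, and whether the authors' counting used strand is not given in the sources used here.

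Among the partners of Mttp in VLDL assembly, Apob, the protein core of VLDL, had 319, 311, 290.3 and 356 FPKM in livers 1 to 4, which was 3.50 to 4.10 times the level of Mttp in the same liver. P4hb, the protein disulfide isomerase that forms the small subunit of the transfer protein, had 837 ± 90.2 FPKM (SD, n = 4), or 9.10 to 10.9 times the level of Mttp. All 15 listed genes of assembly and secretion were expressed, and 2 of them had a highest liver at least 1.5 times the lowest, against 28.4% of all expressed genes. The median SD of log2(FPKM + 1) over this list was 0.15, against 0.16 over all expressed genes. One of the 2 was Tm6sf2, a membrane protein needed for lipidation of VLDL, at 19.9, 25.5, 17.0 and 19.6 FPKM in livers 1 to 4.

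Lipc encodes hepatic lipase, which hydrolyses phospholipid and triglyceride of HDL and remnants on the sinusoidal surface. Its row (XLOC_022736, minus strand, chromosome 9, 70798128 to 70934808) gave 62.2, 59.1, 73.5 and 71.6 FPKM in livers 1 to 4. Livers 3 and 4 were above livers 1 and 2, by a 1.24-fold range, and the mean was 66.6 ± 7.03 FPKM (SD, n = 4). Without liver 2 the range was 1.18-fold. RefSeq (GRCm38.p6) gives Lipc a start at 70952221 and another at 70934808, and the deposited span begins at the latter, so the upstream sequence of that start is shown, with each motif found in capitals.

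Lipc, chr9:70934809-70935058, minus strand, 5′ to 3′: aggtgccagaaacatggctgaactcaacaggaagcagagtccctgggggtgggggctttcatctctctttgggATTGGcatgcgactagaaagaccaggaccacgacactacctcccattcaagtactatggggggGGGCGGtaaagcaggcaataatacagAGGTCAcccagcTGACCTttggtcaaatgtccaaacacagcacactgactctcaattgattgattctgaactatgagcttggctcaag

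The motifs searched, on both strands, were AGGTCA (the core of many nuclear receptor sites), TATAAA (the TATA box), GGGCGG (the GC box) and CCAAT (the CCAAT box). The Lipc window holds AGGTCA on the plus strand of the gene at 88 to 83 bases before the start and on the opposite strand at 76 to 71 bases before it, a GGGCGG at 114 to 109 bases and a CCAAT on the opposite strand at 177 to 173 bases. Among the 32851 windows of 250 bases in the table of promoters, 14.0% hold AGGTCA, 12.4% TATAAA, 32.7% GGGCGG and 33.8% CCAAT on either strand. These matches describe letters only and are not evidence of binding.

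Lpl encodes lipoprotein lipase, which releases fatty acids from chylomicrons and VLDL at capillary walls, mainly in fat and muscle, and is also made by macrophages. Its row (XLOC_020719, plus strand, chromosome 8, 68880555 to 68906932) gave 34.6, 31.1, 29.4 and 39.1 FPKM in livers 1 to 4. Liver 4 was the highest and liver 3 the lowest, and the mean was 33.5 ± 4.30 FPKM (SD, n = 4). Without liver 4 the 1.33-fold range became 1.18-fold.

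Markers of other cells that can make Lpl were set beside it. The summed level of 9 macrophage markers was 85.3, 99.4, 78.9 and 107 FPKM in livers 1 to 4, and 2 of the 9 (Marco and Timd4) had a mean below 1 FPKM. Like Lpl, this sum was highest in liver 4 and lowest in liver 3. With libraries scaled by the median ratio of their genes to the geometric means over livers, both stayed so. With every library scaled to the same summed FPKM the sum was highest in liver 2, by 190 against 188 FPKM in liver 4. Lpl stayed highest in liver 4. The summed level of 6 adipocyte markers was 2.86, 0.961, 0.609 and 4.49 FPKM, which also had liver 4 highest and liver 3 lowest. Nearly all of that sum was Cfd, while Plin1, Lep, Retn and Adig were listed at 0 in all 4 livers and Adipoq did not exceed 0.0528 FPKM. The skeletal muscle markers Acta1, Ckm and Myh1 together reached at most 0.271 FPKM. The part of macrophages or adipocytes in the level of Lpl was not tested.

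Lipg encodes endothelial lipase, a phospholipase that acts mostly on HDL. Its row (XLOC_010206, minus strand, chromosome 18, 74939322 to 74961263) gave 7.77, 6.17, 7.63 and 6.56 FPKM in livers 1 to 4. Livers 1 and 3 were above livers 2 and 4, and the mean was 7.03 ± 0.790 FPKM (SD, n = 4). Its coefficient of variation between livers, 11.2%, was 2.39 times the approximate counting error of 4.70% expected in its lowest liver, the smallest such multiple among the 9 genes. For the others the multiple ran from 3.76 for Mttp to 14.7 for Lcat. The counting errors rest on the estimated depth, so these multiples are approximate.

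The lipases kept the same order in each liver. Lipc was 1.80 to 2.503 times the level of Lpl, with the highest ratio in liver 3, and Lpl was 3.85 to 5.96 times the level of Lipg. These are ratios of transcript level per length and say nothing of enzyme activity.

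Angptl4 encodes a secreted inhibitor of lipoprotein lipase that is induced by fatty acids through PPAR nuclear receptors. Its row (XLOC_009346, minus strand, chromosome 17, 33774900 to 33781575) gave 61.9, 58.1, 67.9 and 57.5 FPKM in livers 1 to 4. Liver 3 was the highest, and the mean was 61.3 ± 4.79 FPKM (SD, n = 4). Its range was 1.18-fold, and 1.08-fold without liver 3. With every library scaled to the same summed FPKM the range was 1.30-fold. Angptl4 was 1.79, 1.87, 2.31 and 1.47 times the level of Lpl in livers 1 to 4, so that the ratio was highest in liver 3, where Lpl was lowest and Angptl4 highest, and lowest in liver 4.

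Angptl8, a secreted inhibitor of the same family that is induced by feeding, is listed under its older symbol Gm6484 and had 34.8, 28.3, 144 and 41.7 FPKM in livers 1 to 4. Liver 3 was the highest, the other livers lay between 28.3 and 41.7 FPKM, and the range was 5.08-fold. The gap below liver 3 took 0.764 of the range on the log2(FPKM + 1) scale, under Dixon's 95% critical value for 4 samples. On the linear scale the gap took a larger part of the range, above that value, so the outcome depends on the scale. Angptl8 was 2.12 times the level of Angptl4 in liver 3 and 0.487 to 0.726 times in the other livers. The deposited span of Angptl8 (chromosome 9, 21800180 to 21852635) is also that of Dock6, which lies on the opposite strand, shares 0 exonic bases with it in GENCODE vM21, and had 4.80, 4.16, 4.15 and 3.33 FPKM.

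**Figure D2:**
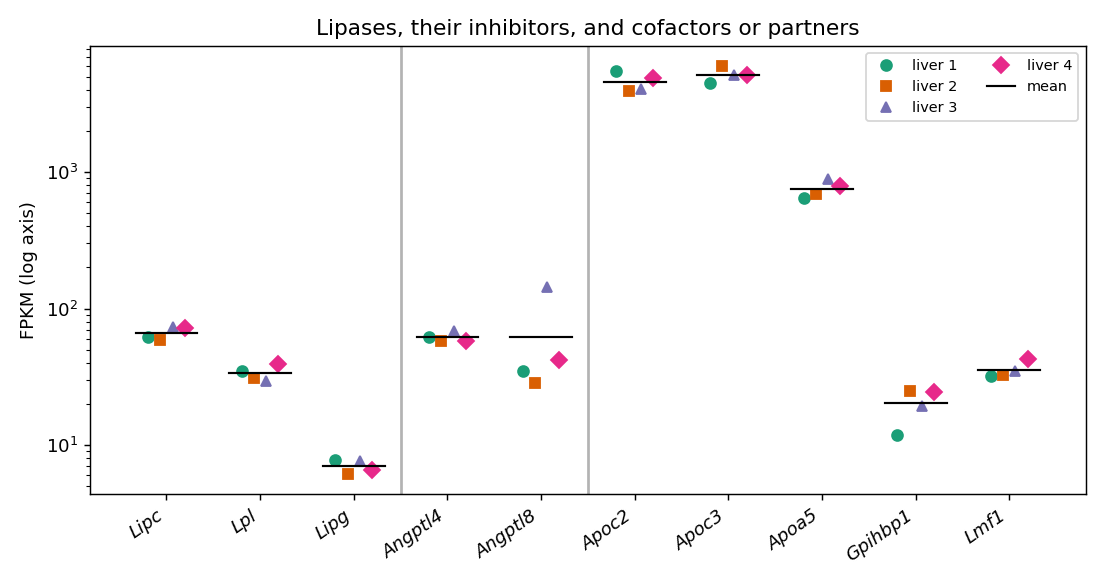
FPKM on a log axis for the lipases (left), the secreted inhibitors (middle) and cofactors or partners (right), with 1 symbol per liver and black lines for means of 4 livers. Angptl8 in liver 3 (144 FPKM) stands above its other livers, and Gpihbp1 in liver 1 (11.9 FPKM) below its other livers.

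All 12 listed cofactors, inhibitors and maturation factors of the lipases were expressed, and 3 of them had a highest liver at least 1.5 times the lowest, near the 28.4% of all expressed genes. These were Angptl8, Gpihbp1 and Pcsk5, a protease that can cleave lipases and their inhibitors. Gpihbp1, the endothelial protein that holds lipoprotein lipase at the capillary wall, had 11.9, 24.9, 19.4 and 24.5 FPKM over livers 1 to 4 and a range of 2.10-fold. The 6 endothelial markers were lowest in liver 1 for 4 of 6 genes, a count without a computed share over all expressed genes. Their sum was 41.9, 54.5, 46.7 and 53.3 FPKM, the same order of livers as Gpihbp1. Most of that sum was Clec4g, at 26.7, 28.5, 28.4 and 33.6 FPKM, which was highest in liver 4. Lipg, at 7.77, 6.17, 7.63 and 6.56 FPKM, had the reverse order of livers. The part of endothelial cells in the level of Gpihbp1 or Lipg was not tested. Apoc2, the activator of lipoprotein lipase, had 4581 ± 726 FPKM and Lmf1, needed for folding of lipases, 35.4 ± 4.75 FPKM (each SD, n = 4).

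Lcat encodes lecithin-cholesterol acyltransferase, the plasma enzyme that esterifies cholesterol on HDL with Apoa1 as its cofactor. Its row (XLOC_021510, minus strand, chromosome 8, 105939551 to 105943402) gave 298, 421, 414 and 439.8 FPKM in livers 1 to 4. Liver 1 was low and the other livers lay within a 1.06-fold range. The gap below the next liver took 0.843 of the whole range on the log2(FPKM + 1) scale, above the 95% critical value that Dixon's test sets with 4 values. Such a gap was found in 1 of the 9 genes and in 5.46% of all expressed genes. On the linear scale the ratio was 0.816, below the critical value, and 0 of the 9 genes and 5.64% of expressed genes passed it. Which of livers 2 and 4 was highest changed with the scaling of the libraries, while liver 1 was lowest under each. With 98.1% of expressed genes at a lower mean, Lcat contributed 43.8% of the summed FPKM of the 9 genes.

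The upstream sequence of Lcat, the most abundant of these genes and the one with a liver apart, holds 1 of the motifs searched, a CCAAT on the opposite strand at 80 to 76 bases before the start, shown in capitals.

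Lcat, chr8:105943403-105943652, minus strand, 5′ to 3′: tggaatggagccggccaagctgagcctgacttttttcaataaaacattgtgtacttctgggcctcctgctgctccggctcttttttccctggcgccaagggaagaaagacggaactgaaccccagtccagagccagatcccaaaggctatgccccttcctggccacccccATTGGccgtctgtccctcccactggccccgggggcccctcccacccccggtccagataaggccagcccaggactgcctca

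Pltp encodes phospholipid transfer protein, which moves phospholipid between lipoproteins and enlarges HDL. Its row (XLOC_012962, minus strand) gave 61.6, 69.2, 49.3 and 65.5 FPKM in livers 1 to 4. Liver 3 was the lowest and liver 2 the highest, and the mean was 61.4 ± 8.64 FPKM (SD, n = 4). Without liver 3 the 1.40-fold range became 1.12-fold, and without liver 2 it was 1.33-fold.

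The deposited span of Pltp (chromosome 2, 164830730 to 164857708) is also given for Ctsa, which encodes a lysosomal carboxypeptidase, and for Neurl2. In GENCODE vM21, 495 of the 2562 exonic bases of Pltp (19.3%) lie on exons of Ctsa, which runs on the opposite strand. Ctsa had 59.6, 69.1, 54.2 and 64.9 FPKM in livers 1 to 4, so the ratio of Pltp to Ctsa was 1.03, 1.00, 0.910 and 1.01. Reads from the shared bases cannot be assigned without strand, and the level of Pltp is uncertain to that extent. Neurl2, which shares 0 exonic bases with Pltp, had 2.27 to 3.12 FPKM. Macrophages also make Pltp. Of 7 expressed macrophage markers, 5 were lowest in liver 3, where Pltp was lowest, and 5 were highest in liver 4, whereas Pltp was highest in liver 2. With every library scaled to the same summed FPKM, 5 of the 7 were highest in liver 2, as Pltp was. Under scaling by the median ratio, 3 were highest in liver 2 and 4 in liver 4. The summed level of 7 stellate cell markers was 228, 296, 184 and 212 FPKM in livers 1 to 4, highest in liver 2 and lowest in liver 3 as Pltp was. Most of that sum was Dcn, at 139.8, 194, 117 and 141 FPKM, and 4 of the 7 genes were highest in liver 2 and 4 lowest in liver 3. For these counts of highest and lowest livers, the shares over all expressed genes were not computed. The part of either cell type in the level of Pltp was not tested.

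**Figure D3:**
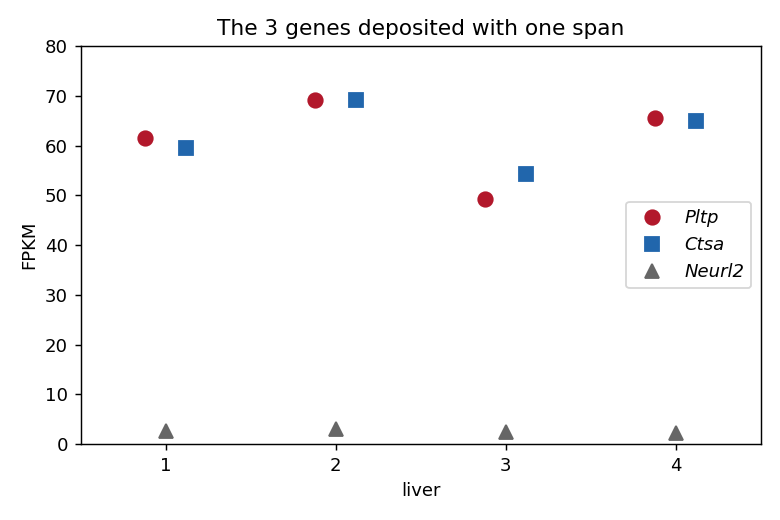
FPKM (linear axis) of the genes that the deposited table gives with the same span, by liver, with 1 symbol per gene and liver. Pltp and Ctsa lie side by side in each liver, at 69.2 and 69.1 FPKM in liver 2 and at 49.3 and 54.2 FPKM in liver 3, while Neurl2 stays below 3.13 FPKM.

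The start of Pltp lies at the far end of the shared span, and its upstream sequence, which neither Ctsa nor Neurl2 overlaps in that annotation, is shown for this locus. It holds a GGGCGG on the opposite strand at 37 to 32 bases before the start and a CCAAT on the opposite strand at 182 to 178 bases.

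Pltp, chr2:164857709-164857958, minus strand, 5′ to 3′: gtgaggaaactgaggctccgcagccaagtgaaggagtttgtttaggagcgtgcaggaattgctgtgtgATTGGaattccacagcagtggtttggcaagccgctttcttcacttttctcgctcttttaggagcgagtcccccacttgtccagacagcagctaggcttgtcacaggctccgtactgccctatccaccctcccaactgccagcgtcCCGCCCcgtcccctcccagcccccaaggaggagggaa

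Scarb1 encodes scavenger receptor class B type 1, through which hepatocytes take up cholesteryl ester from HDL. Its row (XLOC_016840, minus strand, chromosome 5, 125277087 to 125341094) gave 128, 125, 159 and 163 FPKM in livers 1 to 4. Livers 3 and 4 lay above livers 1 and 2 with no value between them, and the mean was 143 ± 20.04 FPKM (SD, n = 4). The range was 1.30-fold, and 1.27-fold without liver 2. Liver 4 was highest as deposited and liver 3 after scaling by the median ratio or to the same summed FPKM. Pdzk1, the adaptor that keeps the receptor at the cell surface, had 32.9 ± 4.18 FPKM (SD, n = 4) and was lowest in liver 3, so the ratio of Scarb1 to Pdzk1 ran from 3.44 in liver 1 to 5.58 in liver 3.

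Lrp1 encodes a large endocytic receptor that clears remnants from the circulation. Its row (XLOC_002391, minus strand, chromosome 10, 127538158 to 127621148) gave 41.5, 46.7, 49.3 and 47.0 FPKM in livers 1 to 4. Liver 1 was the lowest, the mean was 46.1 ± 3.31 FPKM (SD, n = 4), and without liver 1 the 1.19-fold range became 1.06-fold.

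Of 10 listed genes of receptors and clearance, 8 were expressed, and 2 of these had a highest liver at least 1.5 times the lowest, near the 28.4% of all expressed genes. These were Mylip, a ubiquitin ligase, at 2.51, 3.93, 2.80 and 3.04 FPKM in livers 1 to 4, and Dab2, an endocytic adaptor, at 3.95, 6.03, 4.56 and 4.15 FPKM. Both were highest in liver 2. Apoe, a ligand of Lrp1 on remnants, was listed at 0 in all 4 livers, which cannot be read as absence in a table that also lists Alb at 0. The Lrp1 chaperone Lrpap1 had 12.4, 10.4, 12.7 and 12.4 FPKM.

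Ordered by mean level, the genes were Lcat, Scarb1, Mttp, Lipc, Pltp, Angptl4, Lrp1, Lpl and Lipg. Of the 8 pairs of neighbours in this order, 6 had ranges over the livers that did not overlap, and they stood in the same order in 4 of 4 livers. The exceptions were Lipc with Pltp, which stood in this order in 3 of 4 livers, and Pltp with Angptl4, in 2 of 4 livers. The means of Pltp and Angptl4, 61.4 and 61.3 FPKM, differed by less than the SD of either. The largest step was between Lpl and Lipg, a 4.77-fold ratio of means.

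The spread of the 9 genes between animals was close to that of the table as a whole. Their median SD of log2(FPKM + 1) was 0.15 against 0.16 over all expressed genes, and 5 of the 9 lay below the latter. Lcat (0.26), Pltp (0.21) and Scarb1 (0.20) were the most variable, and Mttp (0.07), Lrp1 (0.10) and Angptl4 (0.11) the least. This order rests in part on single livers. Without liver 1 the SD of Lcat was 0.045, beside 0.042 for Mttp and 0.042 for Lrp1, so Lcat was then among the least variable. Without liver 3 the SD of Pltp was 0.083 and that of Angptl4 0.057, and without liver 4 that of Lpl fell from 0.18 to 0.12. The SD of Scarb1 lay between 0.19 and 0.21 with any 1 liver left out.

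**Figure D4:**
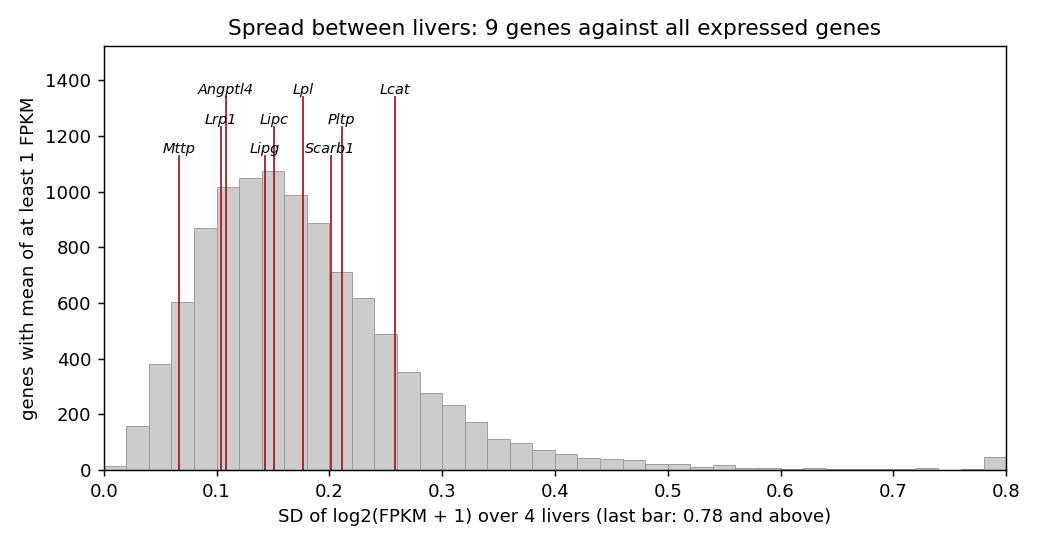
Grey bars count expressed genes by their SD of log2(FPKM + 1) over 4 livers, with all genes from 0.78 upwards in the last bar, and red lines mark the 9 genes. The lines lie between 0.07 (Mttp) and 0.26 (Lcat), on both sides of the peak of the bars.

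The livers did not order the genes in a common way. Liver 3 was highest for Lipc, Lrp1 and Angptl4 and lowest for Mttp, Lpl and Pltp. Liver 1 was highest for Mttp and Lipg and lowest for Lcat and Lrp1. Liver 2, with its high acute phase genes, was lowest for Lipc, Lipg and Scarb1 and highest for Pltp. Under scaling by the median ratio, the highest liver changed for Lcat and Scarb1, and under the same summed FPKM the lowest liver also changed, to liver 4, for Mttp and Lipg.

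**Figure D5:**
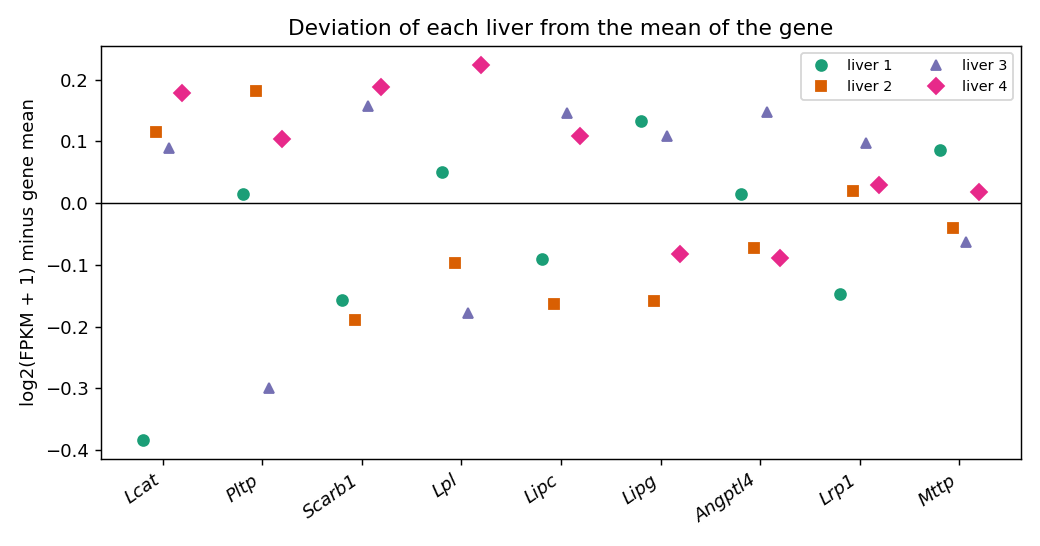
Deviation of each liver from the gene's own mean on the log2(FPKM + 1) scale, with genes ordered by SD and 1 symbol per liver. Lcat in liver 1 (-0.38) and Pltp in liver 3 (-0.30) are the widest deviations.

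Genes with the most similar deviations over the 4 livers were sought for Lcat, Pltp and Scarb1, the most variable of the 9. The search covered the 6537 other genes whose mean reached 5 FPKM, and likeness was measured by the root mean square difference on the log2 scale. For Lcat they were Tpst2 (0.030), Akr1d1 (0.030) and Thap3 (0.031), and 9 genes lay within 0.05. For Pltp they were Selt (0.0090), Itgb1 (0.011) and Clcn3 (0.013), with 91 genes within 0.05. For Scarb1 they were Slc6a9 (0.020), Oxnad1 (0.020) and Tnfsf12 (0.025), with 48 genes within 0.05. This likeness rests on 4 livers and carries no test.

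Of 67 genes in 6 lists of the wider pathway, 65 were expressed, and 19 of these (29.2%) had a highest liver at least 1.5 times the lowest, against 28.4% of all expressed genes. Their median SD was 0.17. A range of at least 2-fold was found in 4 of the 65, namely Angptl8, Gpihbp1, Ppard and Pdk4, near the 6.54% of all expressed genes. Pdk4, a PPAR target like Angptl4 that restrains glucose oxidation, had 3.73, 5.66, 3.36 and 1.58 FPKM over livers 1 to 4 and a range of 3.57-fold. Of 8 PPAR targets 5 ranged at least 1.5-fold, against 28.4% of all expressed genes. Of these, Plin2 (1.53-fold), Acot1 (1.57-fold) and Cyp4a14 (1.58-fold) lay near that limit. Ppara, the main PPAR of hepatocytes, had 61.9, 55.7, 58.1 and 66.8 FPKM. The other PPAR genes ranged 1.70-fold (Pparg) and 2.22-fold (Ppard).

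Among 13 transcriptional regulators, 4 ranged at least 1.5-fold, near the 28.4% of all expressed genes. Liver 3 was the highest for 7 of the 13, against 26.8% of all expressed genes. It was the highest for 8 of the 13 after scaling by the median ratio, against 30.2%, and for 8 after scaling to the same summed FPKM, against 34.2%. Hnf4a, a hepatocyte factor that binds the promoters of many lipoprotein genes, had 93.9, 104, 156 and 118 FPKM in livers 1 to 4. Srebf1, which drives lipid synthesis genes, had 166, 135, 207 and 175 FPKM. Of 9 genes of HDL and sterol efflux, 3 ranged at least 1.5-fold, also near the 28.4% of all expressed genes. Abca1, the exporter that loads cholesterol onto Apoa1, had 19.9 ± 1.11 FPKM (SD, n = 4), or 0.120 to 0.158 times the level of Scarb1.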

How the data were processed

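Per the submitters' processing notes, FastQC 0.10.1, Trim Galore 0.6.3, cutadapt, STAR 2.7.6a, Cufflinks 2.2.1 and the build mm10 were used; parameters, annotation and strand setting are not given in the sources used here. The deposited table holds 1 value per gene and liver with no unit named. The unit of the deposited values was read as FPKM, from their size and the form of the identifiers. No pair of libraries shared more than 1 identical non-zero value. Columns were matched through the sample descriptions, and 0 were left unmatched. Of 22485 symbols compared, 99.8% of spans overlapped the RefSeq GRCm38.p6 span, and starts equalled the RefSeq start for 3.01% as deposited and 52.2% with 1 added, so 1 was added.

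Depth was estimated from genes with 1 annotated transcript over 800 bases. It came from the median of FPKM times length less 200 bases, over values between 25 and 75. That window bounds the estimate in advance, so the depth is approximate. Counting errors rest on it and cover counting only. Values were analysed with numpy 2.4.6 and pandas 2.3.3, with a pseudocount of 1 for logarithms. With a single group no test between groups was made. The code for the gap and range counts was tested on simulated data. Alternatives were other pseudocounts, minimum levels and scalings, and leaving out each liver. The genes named are the 9 members, genes of the fixed lists, 3 nearest genes for 3 members, and genes that share a span or exonic bases with a gene described, which were chosen after the table was seen. Members and lists were chosen with earlier results of these data known. Some genes of the lists are not reported here and were left out of the list counts. RefSeq upstream sequences matched 5 of the 9 genes.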

Additional observations from a re-analysis of the deposited data

Results flagged for a closer look

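In the 82 expressed genes looked at (the 9 described and the listed pathway and acute phase genes), 10 had 1 liver set apart from the other 3 by a gap that took more of the range, on the log2(FPKM + 1) scale, than Dixon's 95% critical value allows. Chance flags about 1 in 20 groups of 4, and 5.46% of all expressed genes in the table had such a gap. Lcat was low in liver 1 (ratio 0.843). Liver 4 was the high one for Sec23a (0.844), a coat protein of vesicles leaving the endoplasmic reticulum, for Mia2 (0.842), for Sort1 (0.943), a sorting receptor that binds apolipoprotein B, at 2.84 FPKM against 2.22 to 2.25 FPKM, and for Apoa1 (0.870), at 15343 FPKM against 11922 to 12320 FPKM. Liver 3 was the high one for Ppard (0.871), at 5.88 FPKM against 2.65 to 2.96 FPKM, for Nr1h2 (0.932), which encodes a liver X receptor, and for Srebf2 (0.846). Liver 2 was the low one for Lrpap1 (0.882) and the high one for Orm1 (0.911), at 1631 FPKM against 758 to 812 FPKM. Under the median-ratio scaling the same liver stayed past the critical value for 5 of the 10, namely Lcat, Sort1, Ppard, Nr1h2 and Orm1. With every library scaled to the same summed FPKM it did for 3, namely Lcat, Sort1 and Orm1. Under the latter the ratio was 0.184 for Mia2 and 0.729 for Apoa1, and for Sec23a (0.692) the widest gap lay at liver 3 in place of liver 4, with no liver past the critical value.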

How the results depend on the processing

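No paired analysis was possible because the samples form a single group. Under both scalings the 9 genes were expressed, 0 of 9 reached a 1.5-fold range, and 6 of 8 neighbours did not overlap. That range was reached by 28.2% of 10540 expressed genes under the median ratio. Under the same summed FPKM, 33.5% of 11666 expressed genes reached it. The range count could not rise from 0 with a liver left out, at the 2-fold limit or with another minimum level, so these say nothing of its stability. The 9 genes were also expressed at a minimum of 5 FPKM. The median SD stayed between 0.13 and 0.16. The widest gap of Sec23a changed livers with every library scaled to the same summed FPKM (ratio 0.692). The scalings of the gaps of the single flagged genes were chosen after seeing the data. On the linear scale, also chosen after seeing the data, 0 genes in place of 1 had a liver apart; the ratio of Lcat then was 0.816. The gap count was not run with a liver left out, since it needs 4 samples. Of 162 comparisons of one of the 9 genes with an alternative, 14 moved, 12 of them a range or SD after leaving out the most extreme liver. The other 2 were the SD of Lipg with a pseudocount of 5 (0.10 in place of 0.14) and the range of Angptl4 with every library scaled to the same summed FPKM (1.30-fold in place of 1.18-fold). That scaling shifted liver 4 by -0.10 on the log2 scale against the mean of the livers. FPKM values hold no counts, so no interval was attached to a single liver.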
